A study of Saccharomyces cerevisiae with 6 samples.

Results

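The genes examined here encode the proteasome of budding yeast (Saccharomyces cerevisiae) and Rpn4, the transcription factor that drives their expression. They were compared between cells with wild-type histone H3 and cells whose H3 carries arginine in place of the lysines at positions 4, 36 and 79. The list held 33 genes, fixed by name: 14 of the core particle, 10 of the base, 8 of the lid and RPN4. Each gene entered with its brightest probe set among those that the platform annotation gives to exactly 1 gene, and all 33 had one, out of 5656 genes with such a probe set. All 33 also passed the filter on mean signal.

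Total RNA was measured on 6 Affymetrix arrays, 3 from the wild-type strain and 3 from the strain labelled Histone H3 K4,36,79R. Both strains were grown in selective medium with galactose and then for 6 h in selective medium with glucose, and were collected when the optical density was 0.5 to 0.7. The series design says that the glucose shift represses a wild-type H3 gene, so that the mutant form is the only H3 made, and it speaks of replicate cultures. Whether these were independent is not said further, so p-values measure the spread between these arrays. Strain background, plasmids and what supplies H3 in the control strain are not given in the sources used here, so any such difference cannot be told apart from the lysines. No protein or histone mark was measured.

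The proteasome degrades proteins that carry ubiquitin chains. Its barrel-shaped core particle is built of rings of alpha subunits, which form the gate, and rings of beta subunits, which hold the proteolytic sites. A regulatory particle caps the core: its base contains the Rpt ATPases that unfold substrates and thread them into the barrel, and its lid contains Rpn11, which removes the ubiquitin chain. In yeast, Rpn4 binds a common promoter element of the subunit genes, and the proteasome in turn rapidly degrades Rpn4, so the genes are known to be adjusted together when proteolytic capacity falls.

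A scaled signal is the deposited intensity after each array was brought to a common trimmed mean of 500. As deposited, the trimmed means were 123.8 to 123.9 on the wild-type arrays and 110.0, 107.5 and 95.01 on mutant replicates 1, 2 and 3. Array values correlated at 0.985 to 0.989 within the wild type and at 0.964 to 0.983 within the mutant. The median SD of a probe set on the log2 scale was 0.13 in the wild type and 0.20 in the mutant, and over the 33 proteasome genes it was 0.13 and 0.23. Of the probe sets annotated jointly to the H3 genes HHT1 and HHT2, 1 fell by 1.57 on the log2 scale in the mutant (SE 0.12, limma adjusted p = 0.00125) and the brightest differed by -0.11 (SE 0.11, limma adjusted p = 0.648). Neither shows which H3 sequence was present.

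No proteasome gene and not RPN4 differed between the groups at an adjusted p under 0.05 in limma, a linear model fitted across all 6808 probe sets tested. Over all of them, 0.896% were called higher and 1.35% lower in the mutant. The direction of the small differences was nevertheless uneven. The mean was higher in the mutant for 28 of the 33 genes (84.8%). For all probe sets this share was 52.5%, and for all tested genes by brightest probe set 54.6%. The median difference of the 33 was 0.18 on the log2 scale, against 0.02 and 0.03. Single differences ran from -0.21 for PUP2 to 0.55 for RPT2, and the limma adjusted p from 0.0893 for RPN2 to 0.986 for RPN11. These genes share the same 6 arrays and vary together, so their count is a description and not a test.

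An unadjusted limma p under 0.05 was reached by 6 of the 33 genes, all higher (18.2%, against 10.7% of all probe sets higher and 8.92% lower). By brightest probe set, 10.9% of all tested genes reached it with a higher mean. For 10 of the 33 every mutant array lay above every wild-type array (30.3%). This held for 14.3% of all probe sets and 15.5% of all tested genes by brightest probe set. For none did every mutant array lie below, which held for 11.5% of all probe sets. The 95% intervals of all 33 differences lay between -0.68 and 0.94, so with this scaling a change of 1 on the log2 scale, in either direction, was outside each of them.

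**Figure D1:**
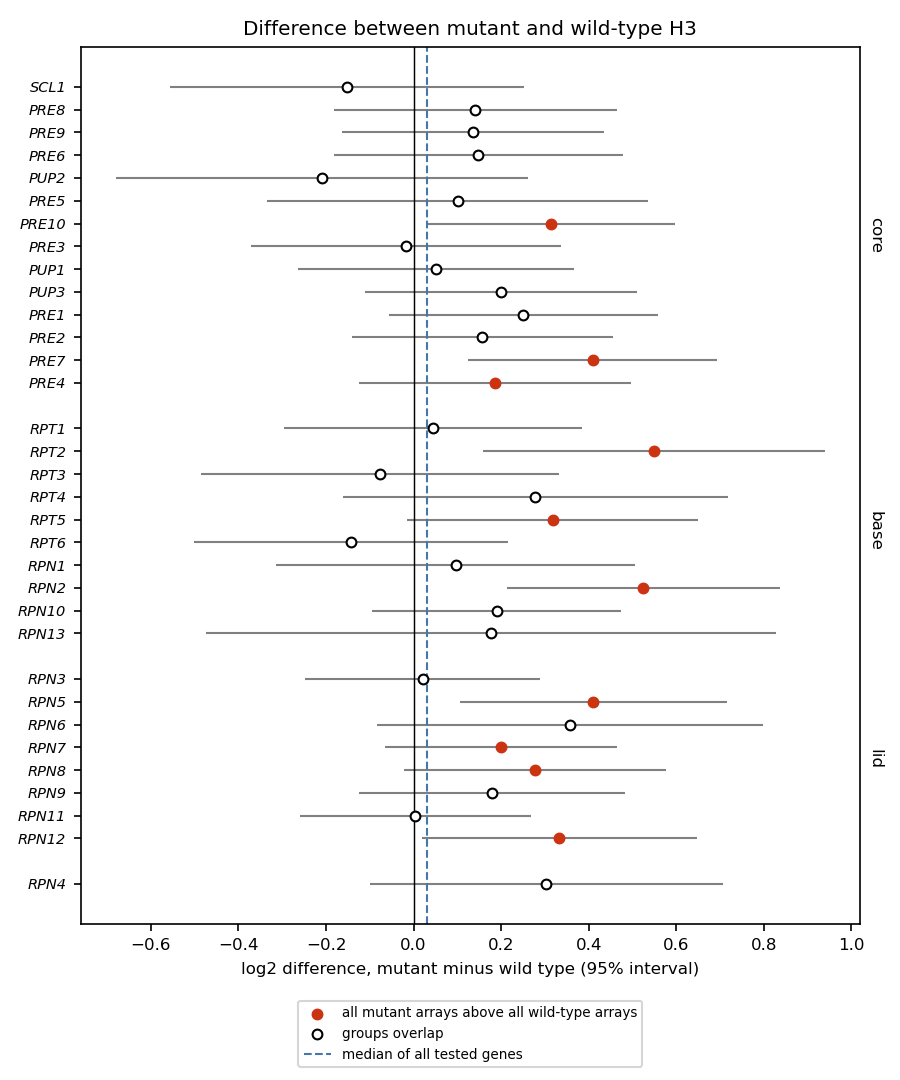
Difference between mutant and wild-type H3 for the 33 genes, as mutant minus wild type of log2(scaled signal + 16) with limma's 95% interval, grouped by core, base, lid and RPN4. Filled points mark the 10 genes whose 3 mutant arrays all lay above the 3 wild-type arrays; the dashed line is the median of all tested genes, 0.03, and 28 of the 33 points lie above 0.

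These directions depend on how the arrays are scaled. As deposited, mutant replicates 1, 2 and 3 had trimmed means of 0.888, 0.868 and 0.767 times that of the wild type. No label explains these factors. The wild-type trimmed means were nearly equal, so the deposited values may already carry a scaling, which was not tested. With the intensities as deposited, the median over all probe sets was -0.22 and that of the 33 genes -0.07. Only 12 of the 33 means were then higher in the mutant. Relative to the median of all probe sets the 33 genes lay 0.15 higher on that scale and 0.16 higher after scaling, with 26 and 27 of them above it. A factor per array moves all its probe sets nearly alike, so these values are close by construction. With the deposited intensities 2 genes had all mutant arrays above the wild type and 3 had all below, against 3.88% and 33% of all probe sets. The added poly-A control RNAs, 15 probe sets, had log2 means, relative to the wild-type mean, of 0.12, 0.18 and 0.39 on the scaled mutant arrays and of -0.05, -0.02 and 0.01 with the deposited intensities. Whether the deposited scale was set on these controls is not given. If it was, their small values there would follow by construction. Which scale reflects the RNA content of the cells was not tested. All further values are scaled signals, and a difference is mutant minus wild type of log2(scaled signal + 16), with its SE.

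RPN4 (YDL020C), the regulator of the whole set, was measured at 434.3, 668.8 and 454.7 in wild-type replicates 1, 2 and 3 and at 712.7, 604.8 and 586.8 in the mutant. The mutant values lay above wild-type replicates 1 and 3 but on both sides of wild-type replicate 2, so the groups overlapped. The wild-type arrays averaged 519.3 ± 129.9 (SD, n = 3), against 634.8 ± 68.1 (SD, n = 3) for the mutant arrays. The difference was 0.30 (SE 0.18, limma adjusted p = 0.383), with a 95% interval from -0.10 to 0.71. Without wild-type replicate 2 the difference was 0.49 (limma adjusted p = 0.176), and without wild-type replicate 1 it was 0.19 (limma adjusted p = 0.738). On wild-type replicate 2, where RPN4 was high, the subunit genes differed by complex. Relative to the wild-type mean their medians on that array were 0.09 in the lid, its highest wild-type value, -0.06 in the core and -0.13 in the base. Among the mutant arrays RPN4 was highest on replicate 1, where the median of the 32 subunit genes was lowest, at 0.10. RPN4 was lowest on mutant replicate 3, where that median was highest, at 0.24. A link between RPN4 and the subunit genes across arrays was not tested.

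In the core particle the median difference was 0.14 over 14 genes, 7 alpha and 7 beta, and 11 of the 14 means were higher in the mutant. No gene was called. An unadjusted p under 0.05 was reached by 2 of the 14 (14.3%, against 10.7% of all probe sets), and 3 had groups that did not overlap (21.4%, against 14.3%), PRE10, PRE7 and PRE4. The beta subunit gene PRE7 (YBL041W) had the clearest separation. It read 1303, 1371 and 1344 in wild-type replicates 1 to 3 and 1565, 1974 and 1834 in the mutant, so the lowest mutant array stood well above the highest wild-type array. Its difference was 0.41 (SE 0.13, limma adjusted p = 0.128).

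PRE10 (YOR362C), an alpha subunit gene, read 1392, 1526 and 1548 with wild-type H3 and 1642, 1925 and 2011 with mutant H3. All mutant arrays were the higher ones, and the difference was 0.31 (SE 0.13, limma adjusted p = 0.215). The beta subunit gene PRE1 (YER012W) read 1239, 1427 and 1247 with wild-type H3 and 1378, 1523 and 1782 with mutant H3. Here mutant replicate 1 lay below wild-type replicate 2, so the groups overlapped at a difference of 0.25 (SE 0.14, limma adjusted p = 0.346). PRE4, another beta subunit gene, had a difference of 0.19 without overlap, with mutant replicate 2 at 2086 and the 2 other mutant arrays, at 1588 and 1585, only just above the highest wild-type array at 1556.

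The genes of the 3 beta subunits that carry the proteolytic sites had overlapping groups. PRE2 (YPR103W), which encodes the chymotrypsin-like subunit, read 2280, 2302 and 2667 with wild-type H3 and 2437, 3112 and 2566 with mutant H3, a difference of 0.16 (SE 0.13, limma adjusted p = 0.552). Wild-type replicate 3, the highest of its group, exceeded 2 of the mutant arrays. PUP1 (YOR157C), of the trypsin-like subunit, read 1824, 1487 and 1830 with wild-type H3 and 1861, 1545 and 1923 with mutant H3, a difference of 0.05 (SE 0.14, limma adjusted p = 0.875). PRE3 (YJL001W), of the caspase-like subunit, read 1837, 1505 and 1416 with wild-type H3 and 1606, 1300 and 1804 with mutant H3, a difference of -0.02 (SE 0.16, limma adjusted p = 0.959). Intervals for PRE2, PUP1 and PRE3 ran from -0.14 to 0.46, from -0.26 to 0.37 and from -0.37 to 0.34. Both other probe sets of PRE3 differed by 0.07 and 0.05.

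Among the other alpha subunit genes, PRE8, PRE9, PRE6 and PRE5 had differences of 0.14, 0.14, 0.15 and 0.10, all with overlapping groups. PRE9 encodes the only core subunit that yeast can live without. The beta subunit gene PUP3 had a difference of 0.20. The alpha subunit genes SCL1 and PUP2 had lower means in the mutant, at -0.15 and -0.21. For PUP2 (YGR253C), the most negative of the 33, the arrays read 913.0, 663.6 and 1088 with wild-type H3 and 821.7, 583.8 and 881.7 with mutant H3 (SE 0.21, limma adjusted p = 0.623). In each group the array numbered 2 was the lowest, and the gap between arrays within a group was larger than the gap between the group means.

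In the base the median difference was 0.18 over 10 genes, and 8 of the 10 means were higher in the mutant. Here RPT2 and RPN2 held the highest differences of the 33, while RPT3 and RPT6 had lower means in the mutant. RPN2 (YIL075C) encodes a large scaffold subunit of the base that anchors the ubiquitin receptor Rpn13. It read 1103, 1133 and 1388 with wild-type H3 and 1673, 1609 and 1941 with mutant H3, means of 1208 ± 156.9 and 1741 ± 176.2 (SD, n = 3). All mutant arrays lay above all wild-type arrays. The difference was 0.53 (SE 0.14) with a limma adjusted p = 0.0893, the lowest of the 33 genes but not a call, and its interval ran from 0.21 to 0.84.

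RPT2 (YDL007W) encodes the ATPase subunit known for opening the gate of the core particle. It read 435.1, 595.7 and 474.1 with wild-type H3 and 633.5, 696.2 and 900.2 with mutant H3, means of 501.7 ± 83.8 and 743.3 ± 139.5 (SD, n = 3). The mutant mean was 148.2% of the wild-type mean, with mutant replicate 3 the highest and mutant replicate 1 close to wild-type replicate 2. The difference was 0.55 (SE 0.17, limma adjusted p = 0.132). RPT5 (YOR117W), another of the ATPases, read 738.9, 735.0 and 657.4 with wild-type H3 and 803.5, 814.2 and 1071 with mutant H3. Its groups did not overlap, at a difference of 0.32 (SE 0.15, limma adjusted p = 0.277). Of its other probe sets, 2 were tested and differed by 0.04 and 0.28 with overlapping groups, and 1 lay below the signal filter.

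The other ATPase genes did not follow RPT2 and RPT5 uniformly. RPT4 had a difference of 0.28 and RPT1 of 0.04, while RPT3 and RPT6 were at -0.08 and -0.14. RPT4 was high on mutant replicate 2, at 1461 against 988.9 and 907.1 on mutant replicates 1 and 3, whereas RPT6 was low on that array, at 1455 against 2069 and 2128. The base gene RPN1, whose product docks ubiquitin-binding shuttle factors, had a difference of 0.10. RPN10 and RPN13, genes of the ubiquitin receptors, had differences of 0.19 and 0.18. RPN13 had the widest spread of all 33 genes, with mutant arrays at 1235, 762.9 and 1894 and an SE of 0.29.

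In the lid all 8 means were higher in the mutant, with a median difference of 0.24, and for 4 of the 8 genes the groups did not overlap (50%, against 14.3% of all probe sets): RPN5, RPN12, RPN8 and RPN7. RPN5 (YDL147W), of a scaffold subunit, read 774.1, 927.5 and 849.7 with wild-type H3 and 1003, 1193 and 1216 with mutant H3. The difference was 0.41 (SE 0.14, limma adjusted p = 0.145). RPN12 (YFR052W), whose product joins the lid late in assembly, read 511.9, 605.0 and 488.6 with wild-type H3 and 613.3, 690.5 and 727.0 with mutant H3. Mutant replicate 1 lay just above wild-type replicate 2, and the difference was 0.33 (SE 0.14, limma adjusted p = 0.229).

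RPN8 (YOR261C) encodes the partner of the deubiquitinase Rpn11. It read 681.6, 817.7 and 763.3 with wild-type H3 and 847.9, 1003 and 901.0 with mutant H3, a difference of 0.28 (SE 0.13, limma adjusted p = 0.287). RPN7 had a difference of 0.20 without overlap, RPN6 of 0.36 with overlap and RPN9 of 0.18 with overlap. RPN6 was low on mutant replicate 2, at 1012 against 1489 and 1665. RPN11 itself had nearly equal means: its wild-type arrays read 1226, 1234 and 1236 and its mutant arrays 1187, 1192 and 1334, a difference of 0.00436 with an interval from -0.26 to 0.27. RPN3 was similar, at 0.02 with an interval from -0.25 to 0.29. The interval of RPN8, from -0.02 to 0.58, overlapped that of RPN11, and the difference between these genes was not tested.

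**Figure D2:**
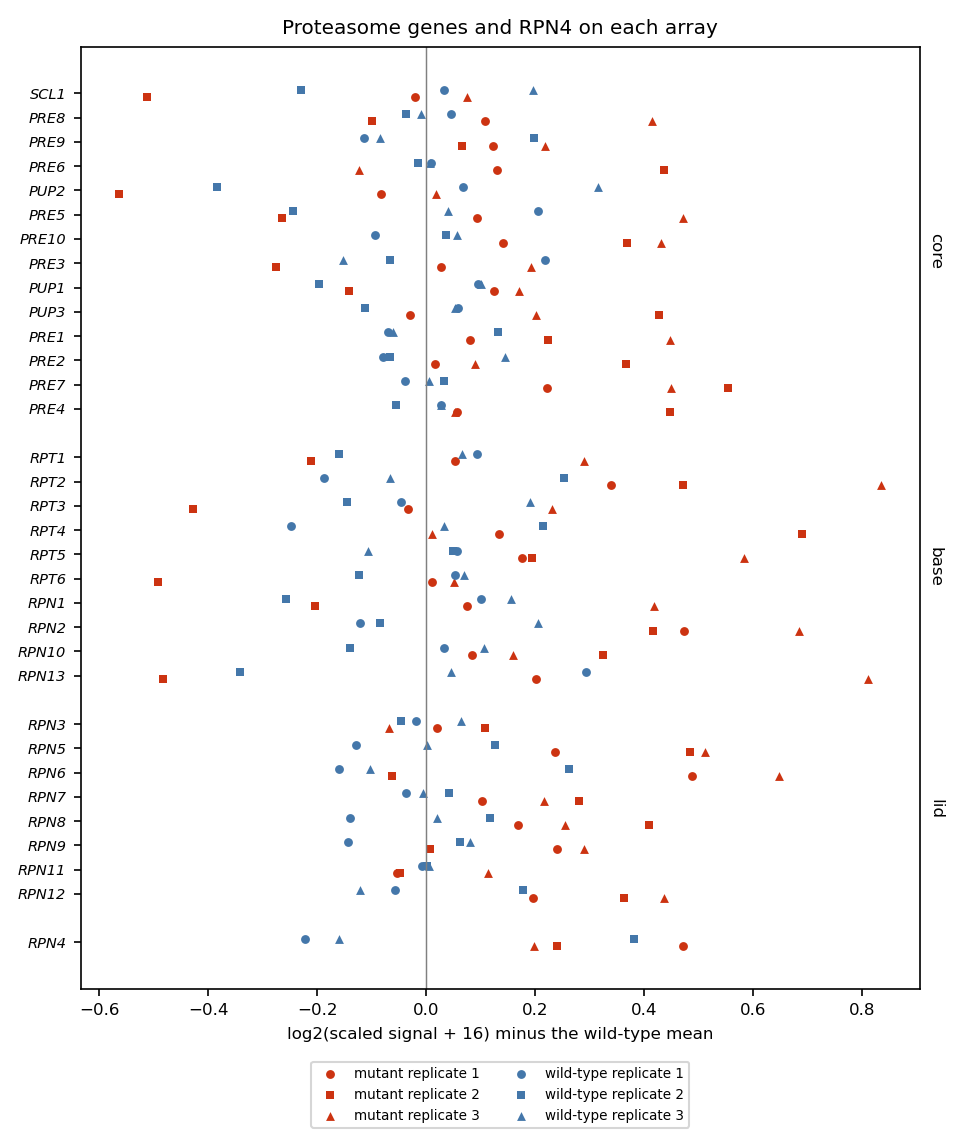
Each of the 33 genes on each of the 6 arrays, as log2(scaled signal + 16) minus the gene's wild-type mean. Blue symbols are wild-type and red symbols mutant arrays; circles, squares and triangles are replicates 1, 2 and 3. The red squares of mutant replicate 2 run from -0.56 to 0.69 over the 32 subunit genes, wider than on any other array.

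The subunit genes did not shift as a block on each mutant array. Relative to each gene's wild-type mean, the median of the 32 subunit genes was 0.10, 0.15 and 0.24 on mutant replicates 1, 2 and 3, and -0.01, -0.04 and 0.04 on the wild-type arrays. The median over all tested genes was -0.00139, 0.03 and 0.09 on those mutant arrays. By complex, the core stood at 0.09, 0.14 and 0.20 on mutant replicates 1, 2 and 3, the base at 0.11, -0.00456 and 0.35, and the lid at 0.18, 0.19 and 0.27. The base was split on mutant replicate 2: RPT4, RPT2, RPN2, RPN10 and RPT5 lay 0.19 to 0.69 above their wild-type means, and RPT6, RPN13, RPT3, RPT1 and RPN1 lay below theirs, between -0.49 and -0.20. The median of the base was 0.06 without mutant replicate 3 and also 0.06 without wild-type replicate 2, on which the base was lowest.

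The SD among the 32 subunit genes was 0.13 on mutant replicate 1, 0.36 on mutant replicate 2 and 0.25 on mutant replicate 3. On the wild-type arrays it was 0.12, 0.17 and 0.10. On mutant replicate 2 the extremes were PUP2 at the low end and RPT4 at the high end. Over all tested genes, dim ones included, the SD was 0.30, 0.41 and 0.40 on the mutant arrays, larger than among the subunit genes. Genes of like signal were not compared. On wild-type replicate 2 the SD over all genes was 0.16, close to that of the subunits.

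The genes split by which array was lowest in each group. Replicate 2 was the lowest array in the wild type and in the mutant for 10 of the 33: SCL1, PRE8, PUP2, PRE5, PUP1, RPT1, RPT3, RPT6, RPN1 and RPN13. Replicate 1 was the lowest in both for 9 others: PRE10, PRE1, PRE2, PRE7, RPT2, RPN5, RPN7, RPN8 and RPN11. Over all tested genes these shares were 15.9% and 14.3%, against 30.3% and 27.3% here. The former group holds no lid gene and the latter holds 4. All 6 genes with an unadjusted p under 0.05 lie outside the former group, namely PRE7, PRE10, RPN2, RPT2, RPN5 and RPN12. So do all 10 whose groups did not overlap. A low mutant replicate 2 itself favours overlap and a larger SE, so this follows in part from how the former group was formed. The like share over all tested genes was not computed.

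**Figure D3:**
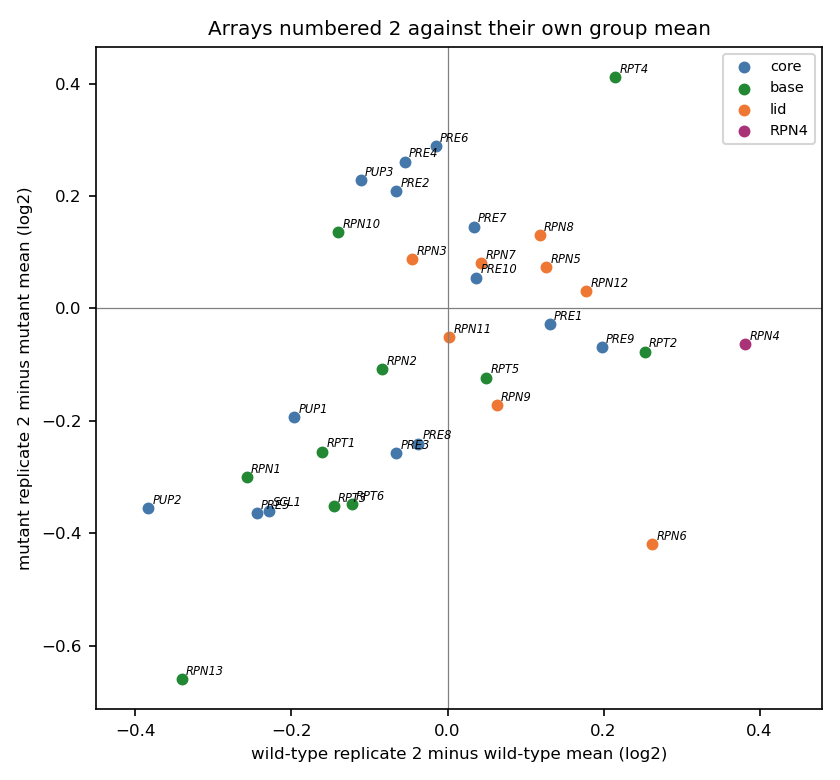
Wild-type replicate 2 against mutant replicate 2 for the 33 genes, each as log2(scaled signal + 16) minus the mean of its own group of 3 arrays, coloured by complex. A set of core and base genes lies low on both arrays, with RPN13 at -0.34 and -0.66 and PUP2 at -0.38 and -0.35, while RPT4 lies high on both.

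Deviations of the 2 arrays numbered 2 from their group means correlated at 0.45 across the 33 genes and at 0.16 across all 6808 probe sets. For the arrays numbered 1 the values were 0.22 and 0.13, and for those numbered 3 they were 0.10 and 0.04. Wild-type replicate 1 and mutant replicate 3, with different numbers, correlated at 0.51 across the 33 genes, and wild-type replicate 1 and mutant replicate 2 at -0.50. Deviations of 3 arrays from their own mean sum to 0, which ties these values to each other. Such values are across genes of the same arrays, and genes are not independent replicates. Labels do not say that a number marks a shared day or batch, and a part of batch in this pattern was not tested. With both arrays numbered 2 left out, a choice made after seeing the data, 28 of the 33 means were higher in the mutant, not all of them the same genes (PRE6 and RPN3 turned lower, PRE3 and RPT3 higher), with medians of 0.06 in the core, 0.15 in the base and 0.28 in the lid, and no gene was called. The lowest adjusted p was then that of RPN6, at 0.0554 in limma.

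Annotated gene length, taken for protein-coding genes, moved with the comparison over the whole array. The median difference was -0.01 for genes of over 500 and up to 1000 bases and 0.09 for genes of over 2000 and up to 3000 bases. Proteasome genes of these classes had medians of 0.15 (17 genes) and 0.31 (2 genes, RPN1 and RPN2), and those of over 1000 and up to 2000 bases had 0.28 (13 genes) against 0.03 for all genes. The rank correlation of difference with length was 0.24 over the 33 genes and 0.16 over 5045 genes. When each array's trend with length was removed, the median of the 33 genes was 0.21 and 29 means were higher in the mutant.

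Genes that act with the proteasome were set beside it. Of 17 genes for assembly chaperones, activators and associated proteins, 12 had higher and 5 lower means in the mutant. The median difference was 0.10, with no call. These values use the brightest probe set, and for BLM10 and ECM29 the sign depended on the probe set. BLM10 differed by 0.31 there and by -0.29 on its other probe set. ECM29 differed by -0.30 there and by -0.39, 0.00335 and 0.46 on its other tested probe sets. UMP1, whose product is a maturation factor of the core particle that is itself degraded by it, read 228.7, 238.5 and 228.6 with wild-type H3 and 320.6, 298.8 and 379.6 with mutant H3. Its groups were clearly apart at a difference of 0.49 (SE 0.14, limma adjusted p = 0.104). IRC25, of a chaperone that builds the alpha ring, had the opposite sign, with wild-type arrays from 233.3 to 256.5 and mutant arrays from 170.0 to 212.0, a difference of -0.34 (limma adjusted p = 0.223). With the deposited intensities IRC25 was called lower, at -0.57 (limma adjusted p = 0.0335). On that scale 367 probe sets of the whole array were called lower and 31 higher. UBP6, of a deubiquitinase bound to the proteasome, had a difference of 0.27, and SEM1, of the small lid subunit, one of 0.00359.

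**Figure D4:**
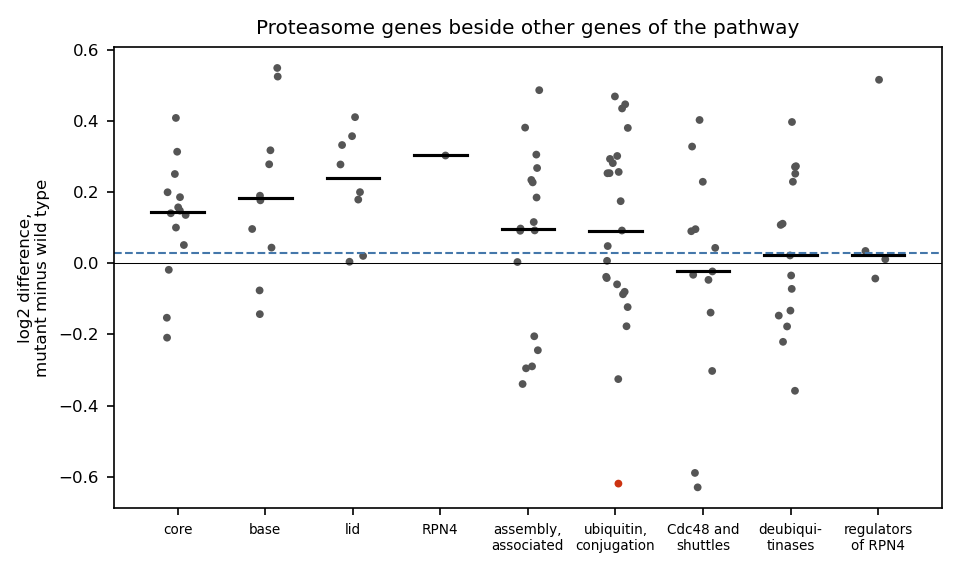
Log2 difference, mutant minus wild type, of each tested gene (points) and the median of each list (bars) for core, base, lid, RPN4 and 5 lists of related genes. The dashed line is the median of all tested genes, 0.03. The 1 red point is UBC13 at -0.62, the only gene shown with an adjusted p under 0.05.

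Ubiquitin, its activating and conjugating enzymes, and ligases with their partners gave the only call among these lists. Of 23 tested genes, 14 had higher and 9 lower means, with a median of 0.09. TOM1 differed by 0.38 on its brightest probe set and by -0.32 to 0.44 on its other tested probe sets. Of the 23, 1 was called lower, against 1.35% of all probe sets called lower. UBC13, of a conjugating enzyme that builds ubiquitin chains in DNA damage tolerance, fell by 0.62 (SE 0.13, limma adjusted p = 0.0404). Its arrays read 1759, 1523 and 1759 with wild-type H3 and 993.3, 1171 and 1101 with mutant H3, with no overlap. The call was lost without any 1 of 5 arrays, at adjusted p of 0.179, 0.0745 and 0.182 without wild-type replicates 1, 2 and 3 and of 0.105 and 0.0861 without mutant replicates 1 and 3 in limma. The difference itself ran from -0.69 to -0.56 with 1 array left out. The call was also lost with no signal filter (0.0577), without the intensity trend (0.0547), both at an unchanged -0.62, and with both arrays numbered 2 left out (0.0527). The polyubiquitin gene UBI4 read 1871, 1545 and 1671 with wild-type H3 and 2368, 2377 and 2294 with mutant H3. These groups were apart too, at a difference of 0.47 (SE 0.12, limma adjusted p = 0.0792). Of the ubiquitin ligase that targets Rpn4, UBR2 differed by -0.18 and its partner gene MUB1 by 0.05.

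Among 13 genes of the segregase Cdc48, its cofactors and the shuttle factors, 6 had higher and 7 lower means, with a median of -0.02 and no call. CDC48 differed by -0.14, with mutant arrays at 3623, 2015 and 3363, of which mutant replicate 2 was again the low one. UBX2, of the membrane anchor of Cdc48, read 259.4, 277.7 and 245.9 with wild-type H3 and 169.2, 183.5 and 152.3 with mutant H3, a difference of -0.59 (SE 0.14, limma adjusted p = 0.0626). OTU1, of a deubiquitinase that works with Cdc48, differed by -0.63 (SE 0.21, limma adjusted p = 0.144). Both passed the threshold without mutant replicate 2, at limma adjusted p of 0.0419 for UBX2 and 0.0241 for OTU1. That fit called 124 probe sets of the whole array higher and 140 lower, against 61 and 92 with all arrays. UBX2 also passed with the deposited intensities, at a limma adjusted p of 0.0214. OTU1 also passed with both arrays numbered 2 left out, at a limma adjusted p of 0.0493. The fit without these arrays called 35 probe sets higher and 43 lower. Of 15 tested deubiquitinase genes, 8 had higher and 7 lower means with a median of 0.02, and UBP10 and UBP12 differed by -0.36 and 0.40 with no call. With the deposited intensities UBP10 was called lower, at -0.61 (limma adjusted p = 0.0305). On that scale, used for the UBX2 call too, 367 probe sets of the whole array were called lower and 31 higher.

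Of the transcription factors known to control RPN4, YAP1 stood apart. It read 198.4, 277.7 and 177.3 with wild-type H3 and 291.1, 342.8 and 306.9 with mutant H3, a difference of 0.52 (SE 0.18, limma adjusted p = 0.152). Wild-type replicate 2 was the highest wild-type array for YAP1, as for RPN4, HSF1 and several subunit genes. For YAP1 it was still below the lowest mutant array. PDR1, PDR3 and HSF1 differed by 0.01, -0.04 and 0.03, each with overlapping groups and limma adjusted p of at least 0.909.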

How the data were processed

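Per the submitters' processing notes, the authors made probe set intensities with MAS5, and the deposited table holds these on a linear scale for 9335 probe sets. The version and target value are not given in the sources used here. After removal of the 60 control probe sets, a factor per array brought its 2% trimmed mean to 500, and testing covered the 6808 probe sets whose signal averaged 50 or more. The test was limma 3.58.1 in R 4.3.3 (lmFit, eBayes with an intensity trend) on log2(signal + 16), p-values being adjusted by Benjamini-Hochberg across the 6808, and was tested on simulated data. The offset understates changes of dim probe sets. The number of arrays limits the precision, with a median SE of 0.14 for the 33 genes. No detection calls were used.

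Exactly 1 gene was listed for 6504 probe sets, several for 328 and none for 2503. All 6504 matched a RefSeq gene table of assembly R64. Members, lists and tests were chosen with earlier results of these data known. Array values are given for RPN4, the genes of the catalytic subunits, the 3 genes with the smallest p in each of core, base and lid, the extremes, and in each other list called genes or the 2 with the smallest p. Array values of PRE4, RPT4, RPT6, RPN13, RPN6 and RPN11 were added after they were seen. Alternatives were other scalings, offsets, filters, a fit without intensity trend, a block for replicate number, removal of the length trend, the mean of a gene's probe sets, and leaving out arrays.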

Additional observations from a re-analysis of the deposited data

How the results depend on the processing

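No proteasome gene was called under any of 18 other settings, of which 17 were planned and 1, leaving out both arrays numbered 2, was chosen after seeing the data. Of 594 recomputed differences 551 kept their sign and 43 turned, 16 of them with the deposited intensities. The other signal filters, the fit without intensity trend and the replicate block cannot change a member's difference. Their part of the 551 was therefore fixed in advance. The mean of a gene's probe sets changes only genes with several. Causes beyond each setting's own construction were not tested. With the deposited intensities the median of the 33 genes was -0.069, and 31 probe sets of the whole array were called higher and 367 lower, against 61 and 92. Genes that turned there were PRE8 (-0.11), PRE9 (-0.11), PRE6 (-0.10), PRE5 (-0.15), PUP1 (-0.20), PUP3 (-0.051), PRE2 (-0.093), PRE4 (-0.064), RPT1 (-0.21), RPN1 (-0.15), RPN10 (-0.060), RPN13 (-0.072), RPN3 (-0.23), RPN7 (-0.049), RPN9 (-0.069), RPN11 (-0.24), HSF1 (-0.21), MUB1 (-0.19), PDR1 (-0.23) and SEM1 (-0.24). After quantile normalization RPN3 (-0.00381), RPN11 (-0.00860), HSF1 (-0.022), PDR1 (-0.00865) and SEM1 (-0.024) turned, and with a common median RPN11 (-0.00860), PDR1 (-0.00172) and SEM1 (-0.00964). With the length trend removed PRE3 (0.014), HSF1 (-0.025) and PDR1 (-0.054) turned, and with the mean of a gene's probe sets PRE3 (0.033).

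Leaving out 1 array at a time gave 13 to 124 probe sets called higher and 23 to 140 lower. Differences that turned ran from -0.12 to 0.11 for PRE3, -0.085 to 0.28 for PRE5, -0.047 to 0.15 for PUP1, -0.065 to 0.25 for RPN1, -0.050 to 0.033 for RPN11, -0.14 to 0.51 for RPN13, -0.023 to 0.065 for RPN3, -0.079 to 0.17 for RPT1, -0.23 to 0.099 for RPT3, -0.24 to 0.031 for RPT6 and -0.27 to 0.027 for SCL1. Among related genes they ran from -0.30 to 0.12 for CDC48, -0.064 to 0.21 for HSF1, -0.18 to 0.27 for MUB1, -0.11 to 0.24 for PDR1, -0.14 to 0.077 for PDR3 and -0.23 to 0.33 for SEM1. With both arrays numbered 2 left out PRE6 (-0.00404), PRE3 (0.077), RPT3 (0.026), RPN3 (-0.046), CDC48 (0.075) and HSF1 (-0.031) turned, and 35 and 43 probe sets were called. Calls numbered 33 higher and 54 lower with no signal filter, 34 and 53 with the length trend removed, and 57 lower with a minimum signal of 200.

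Same-numbered arrays deviated together at correlations of 0.13, 0.16 and 0.04 over all probe sets, and arrays with different numbers at -0.13 to 0.05. Labels do not say that a number pairs samples, and the main fit had no block for it. Whether the numbers mark pairs was not tested. With the replicate number as a block 108 probe sets were called higher and 147 lower, and no proteasome gene, the lowest limma adjusted p being 0.056 for RPN2. With 3 arrays a group, differences much below the intervals given could not be resolved. Promoter sequences were not analysed here.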
